A study of Mus musculus with 90 samples.

Results

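Of the 83592 DNase I hypersensitive sites (DHSs) called in mouse liver, 43963 (52.6%) overlapped neither a glucocorticoid receptor (GR) peak nor a Forkhead box O1 (FOXO1) peak and lay more than 10 kb from every gene transcription start site (TSS) of the mm9 GENCODE vM1 annotation. They are called distal GR/FOXO1-free DHSs here. A further 6888 DHSs (8.24%) lay equally far from a TSS and did overlap a GR or FOXO1 peak, and these distal bound DHSs served as the comparison class. Membership rested on position alone, and no signal value entered it.

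The DHSs were called on the combined reads of 8 DNase-seq libraries from livers of wild type mice on night-restricted feeding (NRF), in which food is given only in the dark phase. These were males of 10 weeks, C57BL/6 by the labels and C57BL/6N in the study's methods. Livers were taken at zeitgeber time (ZT) 14, from mice fed at the onset of darkness (ZT14-fed) or kept without food (ZT14-unfed), nuclei were digested at a DNase I dose of 60 U or of 80 U, and each of the 4 combinations had 2 replicates. Each replicate pooled the livers of 3 to 4 mice. The GR and FOXO1 peaks came from ChIP-seq of ZT14-unfed livers only, with peaks kept where both replicates had them. A DHS listed without GR or FOXO1 was therefore free of a called peak in unfed liver at ZT14, and its occupancy at other times was not analysed here. The 3 lists hold positions and no heights, so the depth behind a DHS or a peak is unknown and fed and unfed accessibility could not be compared.

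RNA-seq of livers of single mice gave the expression of genes near these DHSs. The NRF mice had 2 libraries each at ZT10, ZT14-unfed and ZT14-fed, made by the labels from RNA depleted of ribosomal RNA, while all other libraries used here are labelled as polyA-enriched. Levels of the NRF mice and of the other mice therefore also differ in RNA selection, and tests were made only within an experiment. Injected wild type mice on NRF received vehicle before the meal and were fed or left unfed until ZT14, with 4 libraries each. L-GRKO mice carried Nr3c1 fl/fl alleles and AAV-CRE, with Cre under the hepatocyte TBG promoter, against Nr3c1 fl/fl mice with AAV-GFP. All of these were unfed at ZT14 and on a C57BL/6N background, with 4 libraries a group. L-IRSdKO mice carried Irs1 fl/fl and Irs2 fl/fl with Alb-Cre, a Cre driven by the albumin promoter, against Irs1 fl/fl, Irs2 fl/fl mice without it. All of these were fed, with livers taken at ZT14, and received 1 mg/kg dexamethasone (dex), a synthetic glucocorticoid. They were on a C57BL/6J background, with 4 libraries a group. By the study's methods the L-GRKO and L-IRSdKO experiments also followed night-restricted feeding. The name NRF mice is kept here for the uninjected wild type mice at ZT10 and ZT14. Both promoters are active in hepatocytes, so other liver cells may keep the floxed genes.

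Chromatin that DNase I cuts readily is depleted of nucleosomes, usually because transcription factors sit on the DNA, and DHSs away from start sites include enhancers, insulators and sites of unknown use. GR binds DNA as a dimer at a pair of inverted sites when corticosterone is high, FOXO1 is held out of the nucleus by insulin signalling, and both act on fasting genes in hepatocytes. In liver most enhancers also carry lineage factors such as HNF4, C/EBP and FOXA proteins, whereas CTCF, a zinc finger protein, marks insulators and the borders of chromatin loops in nearly every cell type.

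Members of the class differed widely in sequence, and 4 of them are shown at its extremes (mm9, plus strand, 5′ to 3′, letters of the motifs searched in capitals). The first lay farthest from any TSS, 1038 kb from a 7SK gene, and held 3 GATA motifs and 1 C/EBP motif in DNA of 32.1% GC. The second, in an intron of Odz3 (Tenm3) 119 kb from the TSS, had the highest GC share, 81.5%, with 33 CpGs and no motif. The third, in an intron of Prkca and 74.9 kb from the TSS of Gm11655, held the most motifs, 6 in all, which from left to right were HNF1, TEAD, C/EBP, GATA, a GRE (the GR element) and a RORE. The fourth held a CTCF motif and had 13 other members within 50 kb, the most of any CTCF-motif member.
Farthest from a TSS, chr3:42691644-42691811: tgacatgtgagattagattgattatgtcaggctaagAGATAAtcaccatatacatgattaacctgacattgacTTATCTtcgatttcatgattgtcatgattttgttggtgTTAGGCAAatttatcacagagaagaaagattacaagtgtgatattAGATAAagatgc
Highest GC share, chr8:49640390-49640557: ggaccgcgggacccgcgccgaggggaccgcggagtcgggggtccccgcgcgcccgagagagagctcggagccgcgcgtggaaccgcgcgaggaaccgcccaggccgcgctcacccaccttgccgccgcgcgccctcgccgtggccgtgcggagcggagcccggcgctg
Most motifs, chr11:108118066-108118233: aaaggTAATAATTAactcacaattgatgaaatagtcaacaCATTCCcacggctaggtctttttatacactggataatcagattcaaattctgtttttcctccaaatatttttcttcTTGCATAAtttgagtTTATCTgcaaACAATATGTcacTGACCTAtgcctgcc
CTCF motif in a dense group, chr5:15006917-15007084: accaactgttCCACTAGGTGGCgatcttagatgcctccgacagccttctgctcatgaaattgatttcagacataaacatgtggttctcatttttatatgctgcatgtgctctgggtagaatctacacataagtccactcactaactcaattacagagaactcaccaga

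The distal GR/FOXO1-free DHSs lay a median of 35.4 kb from the nearest TSS, with quartiles of 19.2 and 72.7 kb, against a median of 34.3 kb for the distal bound DHSs. More than 100 kb separated 7337 of them (16.7%, Wilson 95% interval 16.3 to 17) from any TSS, and 242 (0.55%) lay more than 500 kb away. At the limit of the rule, members nearest to it lay 10001, 10002 and 10003 bp from the TSSs of 4930467E23Rik, Arid5a and Gm16082, and DHSs just outside lay 9999 and 10000 bp from those of Ccdc74a and Serpina1c. All DHSs but 1 were listed at a fixed width of 168 bases.

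Introns held the centres of 49.5% of members (95% interval 49 to 50) and intergenic DNA of 47% (46.6 to 47.5). Coding exons held 1.29% and UTR exons 1.57%. The distal bound DHSs were placed alike, with 49.6% (48.4 to 50.8) in introns and 47.6% (46.4 to 48.8) in intergenic DNA, and these intervals overlap. The share inside genes fell with distance, from 56.5% at 10 to 20 kb from a TSS to 40.7% beyond 100 kb.

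GR and FOXO1 peaks were seldom close to a member, which the rule sets in part, since it excludes any overlap with a peak. The gap to the nearest GR or FOXO1 peak had a median of 52.2 kb, and 28990 members (65.9%) had a peak within 100 kb. Only 1349 (3.07%) had a peak within 1 kb. For DHSs without GR or FOXO1 that lay within 2 kb of a TSS the median gap to a peak was 43.5 kb, and 5.58% had one within 1 kb. For those between 2 and 10 kb from a TSS the values were 38.5 kb and 3.77%, so the distance was not particular to members. The nearest other DHS lay a median of 6.8 kb from a member, against 3.92 kb for the distal bound DHSs. Another DHS stood within 1 kb of 12.7% of members (95% interval 12.4 to 13) and of 18.8% of distal bound DHSs (17.9 to 19.8), so the bound sites were the more closely grouped.

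The order of the deposited list separated the classes sharply. The submitters did not say what the list is sorted by, and HOMER, the peak caller, ordinarily writes its strongest peaks first, so the position in the list was used as a rank of unstated meaning. Members stood at a median position of 53294, distal bound DHSs at 12710 and DHSs within 2 kb of a TSS without GR or FOXO1 at 26118. With the list cut into 10 deciles from its top, members made up 11.7% of decile 1, 33.9% of decile 3, 57.8% of decile 5 and 75.3% of decile 10. Only 1 of the first 100 DHSs was a member, whereas 36 were distal and bound. Among distal DHSs alone, the share with a GR or FOXO1 peak went from 70.2% in decile 1 to 6.52% in decile 5 and 0.174% in decile 10. Any difference between the 2 distal classes is therefore also a difference in list position, and comparisons within deciles of the list are given beside the motif results.

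**Figure D1:**
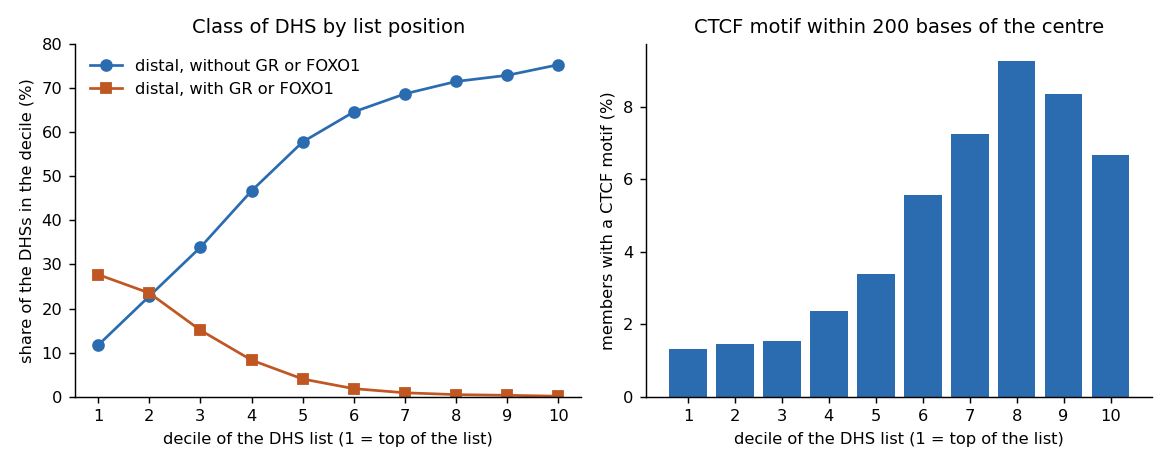
Left, share in percent of the DHSs in each decile of the deposited list that were distal without GR or FOXO1 (circles) or distal with either (squares); right, share of members in each decile with a CTCF motif within 200 bases of the centre, in percent. Members rise from 11.7% of decile 1 to 75.3% of decile 10, and the CTCF share goes from 1.32% in decile 1 to 9.27% in decile 8 and 6.67% in decile 10.

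Along the chromosomes members were unevenly spread. Autosomes held from 14.4 members per Mb on chromosome 7 to 22.9 on chromosome 19, while chromosome X held 6.68 and chromosome Y 4.21. Both sex chromosomes are single in these male mice. Of all DHSs on a chromosome, members made up from 41.2% on chromosome 11, which has 13.6 protein-coding genes per Mb, to 60.9% on chromosome Y, and 60.2% on chromosome 18, which has 5.7 genes per Mb.

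Most members had few neighbours of their class. With members joined when less than 12.5 kb apart, 16813 (38.2%) stood alone, and 791 groups of at least 5 held 4782 members (10.9%). Only 32 groups reached 10 members. The largest held 20 over 104 kb at chr8:122788932-122893044, where Gm20388 was the overlapping protein-coding annotation. Groups of 15 lay over Rtn4rl1 and Tmem44, groups of 14 over Sgms1, Pde1a and Iqsec1, and groups of 13 over Hs1bp3 and Pde4d. Rtn4rl1 encodes a relative of the Nogo receptor, Sgms1 a sphingomyelin synthase, and Pde1a and Pde4d are cyclic nucleotide phosphodiesterases, of which PDE4D cleaves cAMP.

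In base composition the 2 distal classes were alike. The median GC share was 45.2% in both, against 44% in DNA of the same length 1 kb to either side of members and 58.3% in DHSs within 2 kb of a TSS without GR or FOXO1. At least 5 CpGs were present in 4347 members (9.89%), in 8.94% of distal bound DHSs and in 68.4% of the promoter DHSs. Members farther from a TSS were poorer in GC, with medians of 46.4% at 10 to 20 kb and 42.9% beyond 100 kb.

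Short motifs of 17 factor families were searched on both strands of the 168 bases. For hormone and nutrient signals these were FOX, searched as TGTTTAC, the GRE as ACANNNTGT and the CRE as TGACGTCA. The clock elements were the E-box, CACGTG, the D-box, TTATGTAA, and the RORE, TAGGTCA. Lineage factors of liver and other tissues were HNF4 with CAAAGTCCA, C/EBP with TTGCNNAA, HNF1 with TAATNATTA and GATA with AGATAA. General and inducible factors were AP-1 with TGANTCA, ETS with CCGGAAGT, SP/KLF with GGGCGGG, HSF with GAANNTTC, STAT with TTCNNNGAA and TEAD with GGAATG. The core CTCF motif, of 12 bases, is given by name. Motifs may overlap each other, as the C/EBP and HSF letters do in one of the sequences shown. A match is a run of letters and not a measured binding site. At least 1 of the 17 was present in 23666 members (53.8%), and 20297 (46.2%) held none, against 34.6% of distal bound DHSs.

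Several motifs, some of liver factors among them, were less frequent in members than in distal bound DHSs, and CTCF was among the few more frequent. The C/EBP motif was present in 13.3% of members and 24.1% of distal bound DHSs, a difference of -10.8 percentage points (Newcombe 95% interval -11.9 to -9.74). The GRE was present in 6.05% and 12% (difference -5.99, interval -6.81 to -5.21). For the FOX motif the shares were 4.55% and 8.86% (difference -4.3, interval -5.02 to -3.63), and for the HNF4 motif 1.07% and 1.92% (difference -0.85, interval -1.21 to -0.535). Since members were chosen to lack GR and FOXO1 peaks, the GRE and FOX differences follow the rule closely and are given as a description. The same 3 motifs C/EBP, FOX and HNF4 were nevertheless more frequent in members than in the DNA beside them, where the shares were 7.11%, 2.46% and 0.211%. For the GRE the share beside them was 5.55%, close to that in members. The share of all DHSs holding each was 13% for C/EBP, 4.36% for FOX, 1.02% for HNF4 and 5.99% for the GRE.

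For the CTCF motif the order was the opposite. It was present in 482 members (1.1%), in 16 distal bound DHSs (0.232%), in 0.904% of all DHSs and in 0.0665% of the windows beside members. The difference between the distal classes was 0.864 points (interval 0.692 to 0.999), and the share was higher in members on 19 of 21 chromosomes. With only 16 matches in bound DHSs over the 21 chromosomes, that tally was largely set by small counts and adds no support. Within the 6 deciles of the list that held at least 100 DHSs of both classes, the difference was 0.171 points with an interval of -0.251 to 0.593, which includes 0. In the same 6 deciles the FOX difference was -7.68 (interval -9.55 to -5.8), the GRE difference -10.7 (-12.8 to -8.59), the C/EBP difference -6.78 (-8.79 to -4.77) and the STAT difference -3.69 (-5.43 to -1.96), and the HNF4 difference was -0.443 (-1.13 to 0.244), which includes 0. Over all distal DHSs STAT (-1.47, interval -2.16 to -0.818), RORE (-0.618, -1.08 to -0.203) and the D-box (-0.493, -0.87 to -0.163) were also lower in members. So were HNF1 (-0.454, -0.766 to -0.19) and the CRE (-0.22, -0.413 to -0.0787). SP/KLF (0.42, 0.119 to 0.676) and ETS (0.119, 0.00393 to 0.19) were higher. Within the deciles the intervals of all of these but STAT included 0. The AP-1, E-box, GATA, HSF and TEAD shares differed by less than their intervals between the distal classes, with AP-1 at 6.7% and 7.29% and GATA at 11% and 10.5%. The GATA share beside members was 10.1%.

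**Figure D2:**
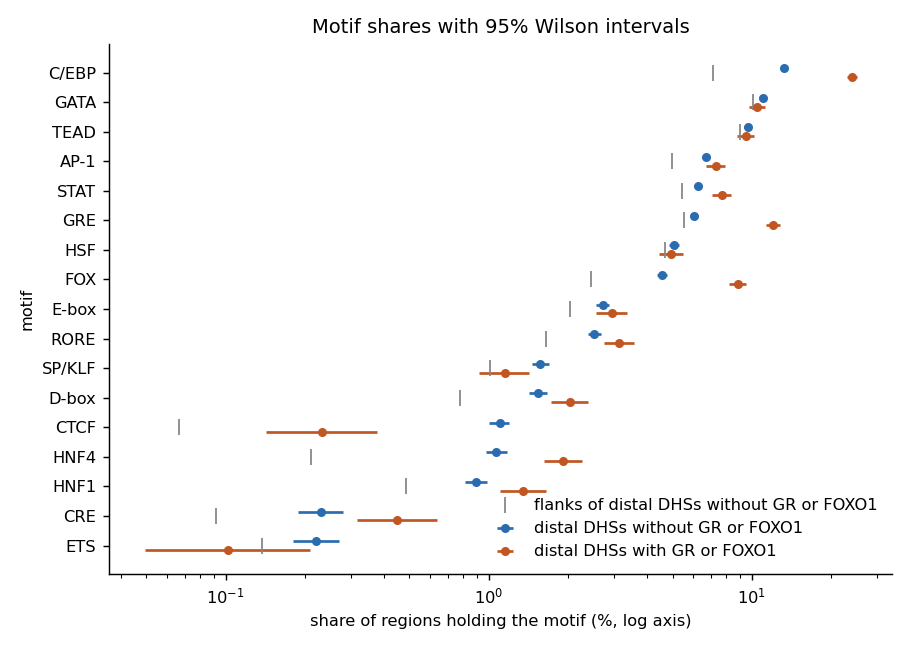
Share of 168-base regions, in percent on a log axis, that hold each motif, for distal DHSs without and with GR or FOXO1 (points with Wilson 95% intervals) and for the DNA 1 kb to either side of members (ticks). C/EBP, GRE, FOX and HNF4 stand lower in members than in bound DHSs, with C/EBP at 13.3% and 24.1%, and CTCF stands higher, at 1.1% and 0.232%.

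Most CTCF motifs lay beside the listed interval and not in it. Within 300 bases of a member's centre there were 2626 matches, at a median distance of 103 bases from the centre and with quartiles of 84 and 125 bases, whereas the interval itself ends 84 bases from the centre. The density of the motif was 85.8 per Mb within 84 bases of the centre, 190.0 per Mb from 84 to 200 bases and 4.73 per Mb from 300 to 490 bases, so the middle zone held 40.2 times the outer density. Around distal bound DHSs the same ratio was 2.66. The HNF4 motif behaved differently, with 67.6 per Mb in the inner zone, 53.6 in the middle and 12.7 in the outer. The CTCF motif also had a preferred direction, since the match lay downstream of the centre on its own strand in 748 of the 2626 cases (28.5%) and upstream in the rest.

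**Figure D3:**
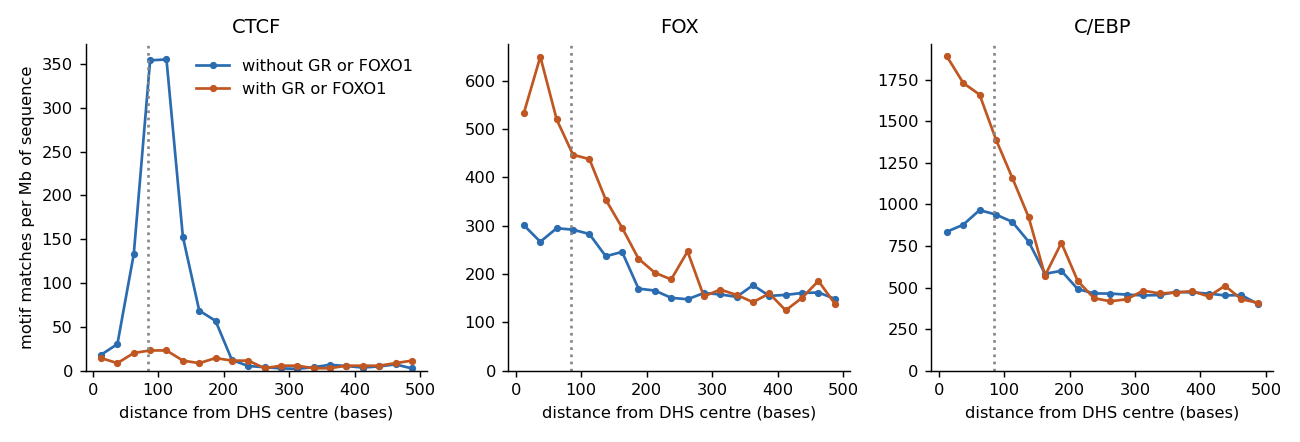
Matches of the CTCF, FOX and C/EBP motifs per Mb of sequence against the distance in bases from the DHS centre, for distal DHSs without and with GR or FOXO1, with a dotted line at the edge of the listed interval, 84 bases out. The CTCF motif peaks outside the 84-base edge of the interval around members, with 190.0 per Mb at 84 to 200 bases, and is scarce around bound DHSs, with 16.3 per Mb.

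In windows of 400 bases around the centre, 2541 members (5.78%) and 41 distal bound DHSs (0.595%) held a CTCF motif, a difference of 5.18 points (interval 4.88 to 5.46). Within the 6 deciles of the list the difference was 2.45 points (interval 1.92 to 2.98) and had the same sign in 6 of 6 deciles. Only 16, 8, 4, 7, 4 and 1 distal bound DHSs of deciles 1 to 6 held the motif, so the tally and the interval rest on small counts. The share in members was 1.32% in decile 1 of the list, 3.4% in decile 5, 9.27% in decile 8 and 6.67% in decile 10. The 400-base window contains the 168 bases, so the 2 counts share matches. FOX motifs in the same windows were present in 9.8% of members and 15.8% of distal bound DHSs (difference -6.04, interval -6.96 to -5.15).

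Members with a CTCF motif in the 400 bases stood in other places than the rest. Their median gap to a GR or FOXO1 peak was 72.3 kb, against 51 kb for other members, and their median gap to another DHS was 9.39 kb against 6.67 kb. Of these members 46.5% lay inside genes, against 53.4% of the others, and 2.75% held a FOX motif in the 168 bases, against 4.66%. Their median list position was 61750, against 52522. No CTCF match lay within 300 bases of 2 members. A member with its CTCF motif at the median distance, in an intron of Kdm2b with A930024E05Rik as its nearest TSS, shows the distance. The listed interval is chr5:123418361-123418528, and 150 bases are printed to either side of its centre. The CTCF letters stand beyond the 3′ edge of that interval, followed by overlapping C/EBP and HSF letters. The match reads along the plus strand and so lies downstream of the centre on its own strand, the less frequent direction (28.5% of matches). This member was chosen after the distance had been seen.
CTCF motif beside the interval, chr5:123418294-123418593: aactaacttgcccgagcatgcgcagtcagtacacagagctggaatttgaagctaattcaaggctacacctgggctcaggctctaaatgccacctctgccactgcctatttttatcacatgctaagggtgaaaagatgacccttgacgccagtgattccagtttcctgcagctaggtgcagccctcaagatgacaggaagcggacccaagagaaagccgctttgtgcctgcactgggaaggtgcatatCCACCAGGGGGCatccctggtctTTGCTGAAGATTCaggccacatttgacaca

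Members near a GR or FOXO1 peak stood apart from those far from one. The 3374 members with a peak within 5 kb had a median list position of 24135, a CTCF motif in 0.267% and a C/EBP motif in 11.4%. The 22413 members with no peak within 50 kb stood at 60113, with 1.36% for CTCF and 14.4% for C/EBP. The C/EBP share also went up with the distance from a TSS, from 11.2% at 10 to 20 kb to 16.7% beyond 100 kb, and the CTCF share went from 1.36% to 0.668%. All of these windows had the same length.

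The genes that were the nearest TSS of the most members included Ets1 with 39, Foxp1 with 34, Arhgap24 with 30, Magi1 with 29, Rad51b with 28, Bmper, Gpc6 and Id2 with 27 each, and Asap1 with 26. ETS1, FOXP1 and the inhibitor ID2 are transcription regulators, RAD51B repairs DNA breaks, and GPC6 is a cell surface proteoglycan. In ZT14-unfed livers Id2 was at 33.8 and 40.1 RPKM (reads scaled to transcript length and to library size) in the 2 mice, and Ets1 at 5.46 and 4.79. Rad51b was at 0.056 and 0.082 RPKM, Bmper at 0.062 and 0.104 and Gpc6 at 0.166 and 0.292, so the genes with the most members included some barely detected in liver. Rad51b, Bmper, Gpc6 and Asap1 had neither GR nor FOXO1 called within 50 kb. The members nearest to the TSSs of Ets1 and Arhgap24 lay in introns of those genes, 10.5 and 17.5 kb downstream, and the member nearest to the TSS of Foxp1 lay 14.1 kb upstream of it, in an intron of Eif4e3. That of Ets1 holds a CA repeat and no motif, that of Foxp1 no motif and that of Arhgap24 a C/EBP motif.
Ets1 intron, chr9:32454329-32454496: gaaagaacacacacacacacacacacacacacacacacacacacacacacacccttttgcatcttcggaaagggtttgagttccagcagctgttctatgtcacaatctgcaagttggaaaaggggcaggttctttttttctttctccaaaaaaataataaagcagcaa
Upstream of Foxp1, chr6:99230660-99230827: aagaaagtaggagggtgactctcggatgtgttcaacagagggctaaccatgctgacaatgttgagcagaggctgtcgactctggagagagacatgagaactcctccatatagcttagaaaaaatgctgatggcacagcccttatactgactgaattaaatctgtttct
Arhgap24 intron, chr5:102927932-102928099: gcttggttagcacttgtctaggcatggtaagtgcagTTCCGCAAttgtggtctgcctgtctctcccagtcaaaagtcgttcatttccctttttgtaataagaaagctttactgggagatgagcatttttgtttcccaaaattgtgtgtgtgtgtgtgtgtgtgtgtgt

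Of the 21923 genes of the expression table that could be placed on mm9, 14601 (66.6%) had a member within 50 kb of the TSS and 9688 (44.2%) had a GR or FOXO1 peak there. Both were present for 7738 genes, only a member for 6863 (31.3%), only a peak for 1950 and neither for 5372. The 6863 are called member-only genes below. In ZT14-unfed livers 43.3% of them reached 0.5 RPKM, against 67.4% of genes with both, 59.9% of genes with only a peak and 17.3% of genes with neither. Among genes without a peak, the median RPKM was 0 with no member, 0.0855 with 1, 0.304 with 2 to 3, 0.819 with 4 to 6, 1.02 with 7 to 9 and 2.67 with 10 or more (9 genes), and Spearman's rho across these 12235 genes was 0.39. Genes share neighbourhoods and members, so they are not independent, and no test is given. Among genes with a peak the medians went from 1.19 with no member to 2.91 with 7 to 9, and the median was 2.3 with 10 or more, over 39 genes.

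Gene lists for liver functions mostly had both kinds of site. Of 19 placed plasma protein genes 18 had a member within 50 kb, of 14 lipid synthesis genes 13, of 14 fasting metabolism genes 11, of 20 liver transcription factor genes 15 and of 18 clock genes 14. A GR or FOXO1 peak lay near all 19 plasma protein, all 14 lipid and all 14 fasting genes. Elovl6, a fatty acid elongase, had 10 members and 9 peaks within 50 kb, Apoa1, the main protein of high density lipoprotein, had 7 and 19, and Ppargc1a, the coactivator of fasting gene programs, had 6 and 6. GR and FOXO1 peaks were counted separately, so a site bound by both factors counts more than once. By the rule members lie more than 10 kb from any TSS, while peaks may lie closer. The numbers of members and peaks thus do not compare as numbers of sites. Fasting genes without a member were Cyp4a14, G6pc and Insig2. Of the clock genes, Npas2, Per3 and Rora were member-only, and of the liver transcription factors only Nr2f2 was.

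No marker of Kupffer cells, the macrophages of liver, or of stellate cells, which store vitamin A, had GR or FOXO1 called within 50 kb of its TSS. All 6 placed Kupffer cell markers (Adgre1, Cd5l, Clec4f, Csf1r, Marco and Vsig4) had a member there. Of the 6 stellate cell markers 4 (66.7%) did (Des, Hgf, Lrat and Pdgfrb), where 66.6% of all placed genes did. All 8 hepatocyte markers had both. Of the endothelial markers 1 of 6 was member-only (Tek), of the cholangiocyte markers 3 of 6 (Epcam, Krt19 and Krt7) and of the lymphocyte markers 1 of 6 (Ms4a1). Across all placed genes 31.3% were member-only. Counted by peaks in the same window, 5 of 6 endothelial markers (83.3%) and 4 of 6 lymphocyte markers (66.7%) had at least 1. So did 2 of 6 cholangiocyte markers (33.3%), beside 44.2% of all placed genes. The absence of peaks was thus found for the Kupffer and stellate cell lists and not for the other non-hepatocyte lists. Adgre1, which encodes the macrophage antigen F4/80, and Clec4f, a Kupffer cell lectin, each had 5 members within 50 kb and no peak. These livers were not sorted into cell types. Clec4f was at 24.9 and 21.3 RPKM in the ZT14-unfed mice and Adgre1 at 5.21 and 4. The 6 lymphocyte markers had a median of 0.0207 RPKM there, with Cd79a at 0 and 0.046 and Ptprc at 1.89 and 1.36. Which cells a DHS was open in was not tested.

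Expression was compared by limma with p-values adjusted over all tested genes, with a threshold of 0.01 for the NRF groups and 0.05 for the others, on log2(RPKM + 0.5), a scale that understates the change of low genes. Each library came from its own mouse. The counts below are of member-only genes that were tested and called, and they are read against the share of all tested genes that was called in the same comparison. A gene that reaches the mean of 0.5 RPKM only through the group where it is high had to differ, so the counts describe tested genes and not all member-only genes. Of the genes named below this holds for Scara5 and Myom2 in L-GRKO livers, Traf5 and Nav2 after the NRF meal, Nmnat3 and Mir762 at ZT14-unfed, and Irs1, Slc4a9, Gucy2c, Mir223 and Mir7-1 in L-IRSdKO livers, whose lower group averaged under 0.5 RPKM. Their p-values and calls are given as a description of the listed values. Most genes named below were picked as the largest called changes. A lack of overlap between their groups was favoured by that choice and is likewise a description. In bulk liver fewer cells of a type and less RNA per cell cannot be told apart. In the deposited values the median log2 fold change of all genes was 0.1 for fed against unfed with vehicle, 0.118 for the NRF meal, -0.097 for ZT14-unfed against ZT10 and 0.082 for L-GRKO, and scaling the libraries by their median ratio moved each to between -0.001 and 0.006, so directions are given under both scalings.

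The knocked-out genes were lower where the labels place the knockouts. Nr3c1, which encodes GR, was at 3.93, 4.23, 4.14 and 5.35 RPKM in L-GRKO livers and 12.8, 14.5, 13.2 and 16.2 in controls, a log2 fold change of -1.58 ± 0.12 (SE, adjusted p = 6.83e-05). Irs1 was at 0.149, 0.155, 0.321 and 0.17 RPKM in L-IRSdKO livers and 2.21, 4.7, 4.73 and 4.5 in controls (-2.66 ± 0.25, adjusted p = 0.000916). Irs2 did not pass the test there, with 0.272, 1, 0.932 and 0.886 RPKM against 0.614, 1.63, 5.61 and 0.929 (-0.79 ± 0.50, adjusted p = 0.308). The library L-IRSdKO replicate 1 also had Foxo1 at 3.29 RPKM, where the other 3 had 16, 19.9 and 17.8. The largest value in a library was 674 to 914 RPKM in the IRS experiment and 18853 to 58443 RPKM in the other comparisons, and the cause was not tested.

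In L-GRKO livers the share of member-only genes called was below the share of all genes, and most of those called rose in the deposited values. Of 3247 member-only genes tested, 82 (2.53%) were called, where 6.68% of all tested genes were, 10.3% of genes with a member and a peak, 5.19% of genes with only a peak and 1.74% of genes with neither. Among genes of at least 10 RPKM the shares were 3.79% for member-only genes, 15.3% with both, 8.1% with only a peak and 4.15% with neither, so member-only genes stood lower than the bound classes at high expression too. Of the 82, 74 rose and 8 fell, where 4.46% of all genes rose and 2.22% fell, and with median-ratio scaling 38 rose and 17 fell, against 294 and 369 of all genes. The count was 37, 33, 44, 46 and 33 without L-GRKO replicates 1, 2 and 3 and control replicates 1 and 2. With 4 or more members within 50 kb 4.29% were called, with 2 to 3 1.84% and with 1 1.89%. In the same order the shares were 2.71%, 4.15% and 3.62% for the vehicle meal and 14.2%, 13.4% and 13.4% for L-IRSdKO. They were 0.362%, 0.452% and 0.224% for the NRF meal and 0.604%, 0.452% and 0.224% for ZT14-unfed against ZT10, on few calls. Genes with more members also had higher RPKM, and in L-GRKO livers 1.25% of member-only genes under 2 RPKM were called. The part of expression level in these shares was not tested.

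Scara5, a scavenger receptor for ferritin, fell the most among member-only genes. It was at 0.361, 0.105, 0.049 and 0.142 RPKM in L-GRKO livers and 13.4, 9.17, 8.56 and 6.08 in controls, and the groups did not overlap. The log2 fold change was -3.85 ± 0.22 (adjusted p = 9.31e-06). L-GRKO livers averaged 0.164 RPKM, so the gene was tested only through the controls, at 9.3. Its TSS at position 66285240 of chromosome 14 had 6 members within 50 kb, the nearest 15.7 kb downstream in an intron, and a GR or FOXO1 peak 51.9 kb away, just beyond the window, with more peaks between 52 and 123 kb along the gene and past its end at 98.4 kb. Scara5 thus counts as member-only by the window and has peaks in its body. The member nearest to its TSS, shown because Scara5 was the largest change and chosen after that was seen, holds an HSF motif and no GRE.
Scara5 intron, chr14:66300963-66301130: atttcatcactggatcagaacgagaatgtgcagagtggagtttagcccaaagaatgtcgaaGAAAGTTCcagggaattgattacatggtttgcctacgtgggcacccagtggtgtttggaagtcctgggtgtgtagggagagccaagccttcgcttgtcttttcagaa

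**Figure D4:**
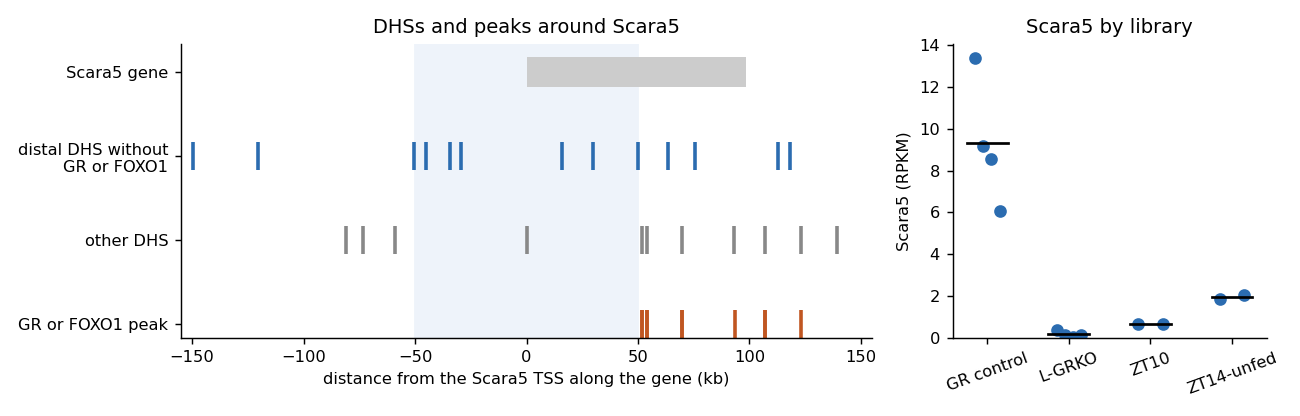
Left, the Scara5 gene, members, other DHSs and GR or FOXO1 peaks by distance in kb from the TSS along the gene, with the 50 kb window shaded; right, RPKM of Scara5 by library (points) with group means (lines). The 4 L-GRKO libraries sit between 0.049 and 0.361 RPKM, all below the controls at 6.08 to 13.4, and the nearest peak lies 51.9 kb from the TSS.

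The other member-only genes that changed the most in L-GRKO livers ranged over many functions. Retreg1, a receptor for autophagy of the endoplasmic reticulum (ER), had 9 members within 50 kb and fell by 1.24 ± 0.16 on the log2 scale (adjusted p = 0.0017), from 29.8, 22.9, 19.7 and 19.8 RPKM in controls to 10.6, 9.2, 7.1 and 10.8. Myom2, a protein of the muscle sarcomere, fell by 1.60 ± 0.29 (adjusted p = 0.00889), from 1.16 to 3.23 RPKM to between 0.123 and 0.43. Cldn2, a claudin of tight junctions, rose from 8.96, 8.76, 7.59 and 7.36 RPKM to 24.9, 24.1, 18.8 and 19.1 (1.35 ± 0.12, adjusted p = 0.000177). Myom2 averaged 0.327 RPKM in L-GRKO livers and was tested only through the controls. None of these 3 overlapped between groups, and Retreg1 and Cldn2 stayed called whichever of the 8 libraries was left out and under median-ratio scaling.

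Mup1, a major urinary protein gene, was at 11.6 to 17.8 RPKM in L-GRKO livers and 2.57 to 6.37 in controls (1.48 ± 0.23, adjusted p = 0.00449), but its many near-identical copies make its reads uncertain. Mme, the peptidase neprilysin, was at 3.39, 8.34, 9.22 and 5.44 RPKM against 2.91, 1.32, 3.48 and 1.79 (1.28 ± 0.31, adjusted p = 0.0347). The Mme groups overlapped, and the call was lost with scaling (adjusted p = 0.0609) and without L-GRKO replicate 2 or 3 or control replicate 2 or 4 (adjusted p = 0.104, 0.0846, 0.11 and 0.0787).

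Among the listed genes, the member-only Nr2f2 (0.69, adjusted p = 0.00738, and called with scaling) and Lrat, which esterifies retinol in stellate cells (0.47, adjusted p = 0.037), were called higher in L-GRKO livers. Lrat was the 1 of 6 stellate markers called, and none was with median-ratio scaling. The summed RPKM of the 6 stellate markers was 26.7 to 36.3 in L-GRKO livers and 20.8 to 28 in controls. The part of those cells in the results was not tested. The 6 Kupffer cell markers had 0 calls and 1 at an unadjusted p under 0.05.

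**Figure D5:**
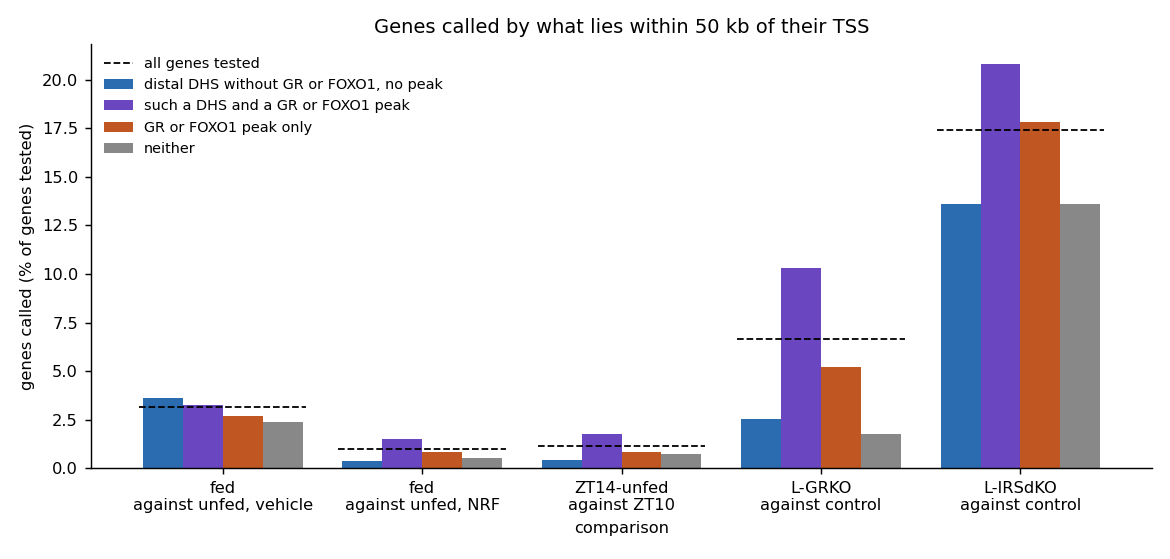
Share of tested genes called, in percent, in each of the 5 comparisons for genes with a member only, with a member and a GR or FOXO1 peak, with a peak only and with neither within 50 kb of the TSS; dashed lines give the share of all tested genes. In L-GRKO livers the shares are 2.53%, 10.3%, 5.19% and 1.74%.

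In fed against unfed mice injected with vehicle, the share of member-only genes called was close to that of all genes. Of 3110 tested, 112 (3.6%) were called, where 3.13% of all tested genes were. Of the 112, 109 rose and 3 fell, and 3.5% of member-only genes rose, where 2.55% of all genes rose and 0.578% fell. With median-ratio scaling 43 rose and 8 fell, and of all genes 114 rose and 107 fell. The count depended on single libraries, with 44, 35 and 55 calls without fed replicates 1, 2 and 3 and 38, 27 and 34 without unfed replicates 1, 2 and 3. Replicate 4 of each group carries a library code from another series in the labels, and without those replicates 195 were called. A replicate block in the fit also raised the count, as given under the processing below. The shares of all genes in these settings are not given here, so the comparison with all genes holds for the main fit only.

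Sdf2l1 and Manf, which encode ER proteins of the unfolded protein response, rose after the meal. Sdf2l1 was at 12.3, 16.1, 13.4 and 31.9 RPKM in fed livers and 2.54, 3.41, 2.92 and 9.87 in unfed livers (1.96 ± 0.44, adjusted p = 0.0244). Manf was at 34.9, 42.2, 46.6 and 78.7 RPKM and 15.3, 16.2, 14.9 and 31.3 (1.36 ± 0.32, adjusted p = 0.0283). Replicate 4 was the highest of its group for both genes, and neither gene's groups overlapped. Sdf2l1 lost its call without fed replicate 2 or unfed replicate 1, 2 or 3 (adjusted p up to 0.0845), and Manf without fed replicate 2, 3 or 4 or unfed replicate 1, 2 or 3 (up to 0.0905).

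Thbd, which encodes thrombomodulin, an anticoagulant receptor of endothelium, was at 5.24, 7.28, 4.34 and 3.15 RPKM in fed livers and 1.96, 1.46, 2.32 and 1.73 in unfed livers, without overlap. It rose by 1.18 ± 0.20 on the log2 scale (adjusted p = 0.00539) and stayed called whichever of the 8 libraries was left out. Acss2, the cytosolic acetyl-CoA synthetase, fell from 91.8, 78.7, 68.7 and 45.9 RPKM to 35.9, 31.5, 45.8 and 37.3, with the lowest unfed mouse level with the highest fed one (-0.88 ± 0.21, adjusted p = 0.0313), and lost its call without fed replicate 1 or 2 or unfed replicate 1, 2 or 3 (adjusted p up to 0.109). Mcc fell by 0.74 ± 0.15 (adjusted p = 0.0121; 0.053 without unfed replicate 2) and Terf1, a telomere protein, by 0.66 ± 0.15 (adjusted p = 0.0226). Terf1 was not called without fed replicate 1 or unfed replicate 1, 2 or 4 (adjusted p up to 0.066).

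Of the Kupffer cell markers, all of them member-only genes, 3 of 6 were called in these mice in the deposited values, where 3.13% of all genes were. Adgre1 (0.81, adjusted p = 0.0329), Cd5l (0.74, adjusted p = 0.0338) and Csf1r (0.76, adjusted p = 0.0262) rose, and none was called with median-ratio scaling. The median log2 fold change of the 6 was 0.69, and 0.58 with scaling. Their summed RPKM was 71.7 to 110.0 in fed and 50.8 to 65.1 in unfed livers, without overlap. The hepatocyte marker sum was 48262 to 65018 and 54117 to 76467. In the NRF mice the Kupffer sums were 54.9 and 71.5 in fed and 54.8 and 69.8 in unfed livers. What part these cells have in the 109 rises was not tested.

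The meal in the NRF mice, with 2 libraries a group, called 11 of 3048 member-only genes (0.361%), where 0.99% of all tested genes and 1.49% of genes with both sites were called. Of the 11, 9 rose and 2 fell, where 0.568% of all genes rose and 0.422% fell, and with median-ratio scaling 6 rose and 3 fell, against 46 and 68 of all genes. The count was 0 without ZT14-fed replicate 1 or 2 or ZT14-unfed replicate 2 (624, 330 and 449 genes at an unadjusted p under 0.05) and 41 without ZT14-unfed replicate 1.

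Of the 11, Traf5, an adaptor of tumour necrosis factor receptors with 8 members within 50 kb, was at 1.86 and 1.95 RPKM in fed and 0.409 and 0.52 in unfed livers (1.32 ± 0.16, adjusted p = 0.007). Nav2, a cytoskeletal protein, was at 1.51 and 1.76 against 0.357 and 0.324 (1.34 ± 0.14, adjusted p = 0.00507). Rapgef4, which encodes the cAMP sensor EPAC2, fell from 52.1 and 54.9 RPKM to 26.4 and 28.3 (-0.95 ± 0.11, adjusted p = 0.007), and the adhesion molecule Vcam1 from 6.83 and 7.99 to 3.59 and 3.82 (-0.91 ± 0.11, adjusted p = 0.00903). H1f3, a linker histone gene, was at 6.1 and 5.87 against 1.95 and 1.88 RPKM (1.42 ± 0.18, adjusted p = 0.00903), was not called with scaling (0.0114), and belongs to a histone family whose reads may be split. No gene of these 5 overlapped between groups. They were picked as the largest called changes with 2 libraries a group, so this adds no support. Leaving out 1 library leaves 1 mouse in its group, whose spread is then taken from the other groups, so a lost call is partly set by the design. Traf5 and H1f3 lost the call whichever of the 4 libraries was left out (adjusted p up to 0.0754 and 0.0854), and Nav2, Rapgef4 and Vcam1 without ZT14-fed replicate 1 or 2 or ZT14-unfed replicate 2 (up to 0.0643, 0.0713 and 0.0754).

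Between ZT10 and ZT14-unfed, 13 of 3048 member-only genes (0.427%) were called, where 1.16% of all tested genes and 1.76% of genes with both sites were. This comparison shares its ZT14-unfed libraries with the NRF meal. Of the 13, 1 rose and 12 fell, where 0.376% of all genes rose and 0.788% fell, but with median-ratio scaling 1 rose and 1 fell, against 46 and 28 of all genes. The count was 37 without ZT14-unfed replicate 1, 1 without ZT14-unfed replicate 2 and 0 without either ZT10 replicate (498 and 620 genes at an unadjusted p under 0.05).

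The gene that rose was Scara5, at 1.86 and 2.05 RPKM in ZT14-unfed and 0.659 in both ZT10 livers (1.08 ± 0.13, adjusted p = 0.00825). Tbcel, a tubulin cofactor relative with a peak 50.1 kb from its TSS, fell from 10.7 and 9.67 to 3.82 and 4.2 RPKM (-1.25 ± 0.10, adjusted p = 0.00325). Per3, a clock gene and member-only, fell by 1.11 (adjusted p = 0.00547) and was not called with scaling. Nmnat3, a mitochondrial enzyme of NAD synthesis, fell from 1.67 and 1.77 to 0.532 and 0.323 (-1.27 ± 0.16, adjusted p = 0.00839, and 0.0117 with scaling). Mir762 was listed at 0.978 and 1.3 RPKM at ZT10 and at 0 in both ZT14-unfed livers. With 1 mouse left in a group, Scara5 lost its call whichever of the 4 libraries was left out (adjusted p up to 0.047), Nmnat3 without ZT14-unfed replicate 2 or either ZT10 replicate (up to 0.053) and Tbcel without either ZT10 replicate (up to 0.0274).

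IRS1 and IRS2 carry the signal from the insulin receptor, and in L-IRSdKO livers the share of member-only genes called was below the share of all genes. Of 3704 member-only genes tested, 505 (13.6%) were called, where 17.4% of all tested genes, 20.8% of genes with both sites, 17.8% of genes with only a peak and 13.6% of genes with neither were. By level, the shares of member-only genes and of genes with neither were 9.5% and 8.95% under 2 RPKM, 14.9% and 11.8% at 2 to 10 RPKM and 14.8% and 18.8% at 10 RPKM or more, where 24.8% of genes with both sites were called. Of the 505, 313 rose and 192 fell, where 9.06% of all genes rose and 8.31% fell, and with median-ratio scaling 294 rose and 236 fell, against 1079 and 1265 of all genes. The count was 201, 240 and 228 without L-IRSdKO replicates 2, 3 and 4, 330, 315 and 326 without control replicates 1, 2 and 4, and 647 without L-IRSdKO replicate 1.

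Slc4a9, of the anion exchanger family, was at 1.95, 16.6, 14.6 and 20 RPKM in L-IRSdKO livers and 0, 0.085, 0.176 and 0.081 in controls (4.20 ± 0.60, adjusted p = 0.00429). Gucy2c, the guanylate cyclase receptor of guanylin, was at 2.34, 7.14, 3.97 and 6.08 against 0.143, 0.408, 0.212 and 0.129 (2.81 ± 0.31, adjusted p = 0.00178). Mug2, a protease inhibitor of the murinoglobulin family whose members resemble each other, was at 0.907, 4.3, 7.94 and 3.4 RPKM against 48.8, 39.2, 49.1 and 39.4 (-3.52 ± 0.45, adjusted p = 0.00309). Replicate 1 was the lowest knockout for each of the 3, and the groups did not overlap. Slc4a9 and Gucy2c averaged 0.0855 and 0.223 RPKM in controls, so they were tested only through the knockout livers. Mug2 stayed called whichever of the 8 libraries was left out.

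The other named genes of this comparison were small RNA genes, which polyA-selected libraries, as these are labelled, measure poorly and whose reads may come from host transcripts. Mir223 was listed at 7.5, 6.5, 7.34 and 2.04 RPKM in L-IRSdKO livers and at 0 in the 4 controls, and Mir7-1 at 5.12, 2.44, 5.06 and 9.28 in controls and at 0 in the 4 knockouts. Snord69 was listed at 0 in 3 knockouts and 4.6 in the other, and at 4.72 to 13.5 in controls.

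Markers of other cells were called here too, where 17.4% of all tested genes were. Of 6 endothelial markers 4 rose, with the member-only Tek at 0.66 (adjusted p = 0.0127), and 4 did with scaling. Of 6 stellate markers 2 rose, with Hgf at 0.90 (adjusted p = 0.024), and 1 did with scaling. Of 6 Kupffer markers 1 rose under both, Clec4f at 0.46 (adjusted p = 0.0399), a share near that of all genes, and the summed RPKM of the 6 was 269 to 339.6 in L-IRSdKO livers and 154 to 285 in controls. Of the 4 cholangiocyte markers tested 2 fell, with the member-only Krt7 at -1.14 (adjusted p = 0.0134), as many as with scaling, and the sum of all 6 was 8 to 14 against 19.9 to 46.3. The part of these cells in the 505 calls was not tested.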

How the data were processed

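Lists of DHSs, GR peaks and FOXO1 peaks (DNase-seq and ChIP-seq, HOMER on reads aligned by STAR to mm9) were deposited by the authors as positions without scores. The DHSs were called on pooled reads at an FDR of 0.001 with at least 25 tags, per the study's methods. The RPKM values deposited by the authors cover 35707 RefSeq identifiers in 54 libraries, of which 35407 matched a symbol and 21923 of the 24312 symbols were placed on mm9. By the labels, RNA of the NRF mice was depleted of ribosomal RNA and that of the other mice polyA-enriched. H3K27Ac ChIP-seq and the 12 RNA libraries of obese and lean mice were not used here.

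DHSs were classed by overlap of at least 1 base and by the distance to gene TSSs (Python 3.11.15, pandas 2.3.3, numpy 2.4.6). Motifs were searched in the mm9 sequence, on both strands. Shares have Wilson and their differences Newcombe 95% intervals, which treat DHSs as independent and cover counting error only. Depth is unknown for the lists, and RPKM carries no counts.

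RPKM values were tested as log2(RPKM + 0.5) with limma 3.58.1 (R 4.3.3, trend). Genes were kept whose average reached 0.5 RPKM over all libraries of the fit. The p-values had Benjamini-Hochberg adjustment over all tested genes, with a threshold of 0.01 for the NRF groups, as in the study, and 0.05 otherwise. NRF groups shared 1 fit, as did the injected groups, including the fed mice given dex, S961 or both. Groups of a fit that were not compared thus also entered its filter and its estimate of spread. The scripts were tested on simulated data.

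Named genes were the 10 nearest TSSs of the most members, the 2 genes of each list with the most members within 50 kb, the 3 largest rises and falls among called member-only genes of each comparison, and Nr3c1, Irs1, Irs2 and Foxo1. The members and the lists were chosen with earlier results of these data known. Alternatives were another pseudocount, filter, scaling, gene window, threshold, set of samples and a replicate block, and leaving out each library. Some genes that the naming rule selects are not reported here.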

Additional observations from a re-analysis of the deposited data

Results flagged for a closer look

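In 44 groups of 4 libraries, 7 had a library far from the other 3, and chance alone flags about 1 in 20. Unfed vehicle replicate 4 was high for Sdf2l1, at 9.87 RPKM where the others had 2.54 to 3.41, for Manf, at 31.3 where the others had 14.9 to 16.2, and for Terf1, at 3.79 where the others had 2.85 to 3.01. L-IRSdKO replicate 3 was at 4.6 RPKM for Snord69, with the other 3 at 0, and at 0.321 for Irs1, with the others at 0.149 to 0.17. IRS control replicate 1 was low for Irs1, at 2.21 RPKM where the others had 4.5 to 4.73. L-IRSdKO replicate 1 was low for Irs2, at 0.272 RPKM where the others had 0.886 to 1.

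For 2 member-only genes called after the meal in the injected mice, the NRF change had the other sign. Acss2 had a log2 fold change of -0.88 in injected mice and 0.31 in NRF mice, and Thbd 1.18 and -0.05. Groups did not overlap in either experiment, but the lowest unfed Acss2 value in injected mice, 45.9 RPKM, was level with the highest fed one, 45.8. Both genes were picked as largest called changes there, and the NRF groups had 2 libraries each, so this separation adds no support. The NRF change of Thbd was small. The experiments also differ in RNA selection, ribosomal RNA depletion in the NRF mice and polyA enrichment in the injected mice by the labels. The differences between the experiments were not tested.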

How the results depend on the processing

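The number of members stayed within 1.5 times under 6 other rules. The share inside genes was 51.4% with protein-coding genes only, 51.7% beyond 20 kb from a TSS and 46.4% with the TSS of every transcript, against 53%. The CTCF difference was 0.171 points within deciles of the list, a comparison chosen after seeing the data, and the FOX difference kept its sign and excluded 0 in 3 of 3 alternatives. The count of called member-only genes for the vehicle meal was 51 with median-ratio scaling, 297 with a replicate block and 195 without the replicate 4 libraries, also chosen after seeing the data. For the NRF meal it was 0 with no filter on low values (907 genes at an unadjusted p under 0.05), 17 with a mean of at least 2 RPKM, 0 with a replicate block (661), 3 with the compared groups alone and 138 at an adjusted p under 0.05. For ZT14-unfed against ZT10 it was 1 with no filter, 25 with at least 2 RPKM, 2 with scaling, 0 with a replicate block (663), 0 with the compared groups alone (630) and 212 at an adjusted p under 0.05. For L-GRKO it was 49 with no filter and 52 with a window of 100 kb, and for L-IRSdKO 278 with a replicate block. Leaving out 1 library each gave 27 to 120 for the vehicle meal, 0 to 41 for the NRF meal, 0 to 37 for ZT14-unfed against ZT10, 33 to 78 for L-GRKO and 201 to 647 for L-IRSdKO. Shares of all genes are not given beside these counts, so they show only how the number of calls moved. The causes were not tested.

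Same-numbered libraries deviated together in part in the vehicle mice, with correlations of 0.316, 0.195, 0.046 and 0.507 for replicates 1 to 4. Elsewhere the correlations were -0.006 and 0.048 in the NRF mice, -0.055 to 0.154 in the L-GRKO experiment and -0.059 to 0.064 in the IRS experiment. The labels do not pair mice by number, so the main fits had no replicate block. The other library series that the labels give for the vehicle replicate 4 libraries was therefore left in the spread of that fit. For the vehicle meal the main count is lower than the count with a block given above. Of 635 alternative values of the named genes, 528 kept their direction and call, 102 kept their direction and lost the call, 5 kept it and gained one, and 0 changed direction. Leaving out repeats by lower-case letters could not be run, since the genome used has 0 lower-case bases.

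Several limits hold throughout. The lists carry no heights, so the strength of a DHS is known only through a list order of unstated meaning. The peaks are those of unfed livers at 1 time. With 2 libraries a group the NRF counts rest on single mice. A window of 50 kb does not show which gene a DHS serves. Exact letter runs miss degenerate sites.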
